A study of Mus musculus with 8 samples.

Results

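The Wnt pathway genes examined here were 44 of the 55421 genes in the count table. They were chosen by symbol: every numbered Wnt ligand, Fzd receptor, Sfrp and Dkk antagonist, and in addition Lrp5, Lrp6, Axin2, Lef1, Tcf7, Nkd1 and Notum. This gave 19 ligands, 10 receptors, 2 co-receptors, 8 antagonists (4 Sfrp and 4 Dkk), 2 nuclear factors and 3 targets. The rule used no measured value. RNA came from primary cultures of mouse spermatogonia (SSC culture) of neonatal C57BL/6 X DBA/2 F1 hybrid animals, and all 4 groups shared irradiated mouse embryonic fibroblasts as feeder cells. The cultures carried the label Stra8KO (lacking Stra8, whose product is needed for meiotic entry after retinoic acid exposure) or Spo11KO (lacking the gene for the enzyme that makes meiotic DNA breaks). Each was given vehicle (Veh) in SSC medium, which holds the growth factors bFGF and GDNF, or NRRA for 2 days. NRRA is nutrient restriction, in which most of the SSC medium and with it most of these growth factors is replaced by a salt solution, together with retinoic acid. Each group had 2 libraries, 8 in all, and wild-type cultures were not analysed here.

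Wnt ligands are secreted lipid-bearing proteins that bind Frizzled receptors. Together with the co-receptors Lrp5 and Lrp6 they stop the breakdown of beta-catenin, which then acts with the nuclear factors Tcf7 and Lef1 to raise targets such as Axin2, Nkd1 and Notum, and these targets in turn dampen the signal. Sfrp proteins bind the ligands and Dkk1, Dkk2 and Dkk4 bind the co-receptors, while Wnt5a and Wnt11 mostly act without beta-catenin. In the testis, Wnt signals reach spermatogonia from somatic cells and from germ cells themselves, and beta-catenin signalling has been linked to both the renewal and the differentiation of spermatogonia.

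Library totals ranged from 20960794 to 27038868 counts, and the 44 genes held 0.130% to 0.146% of them. Stra8 had 2 and 0 counts with Veh and 169 and 170 with NRRA in Stra8KO cultures, beside 28 and 12 with Veh and 12604 and 16191 with NRRA in Spo11KO cultures. Spo11 had 72, 75, 148 and 127 counts in the libraries labelled Spo11KO and 32, 31, 68 and 66 in those labelled Stra8KO, so gene counts give no check of the Spo11KO label and that name is used here as a label. The 8 pan-germ markers, among them Ddx4 and Dazl, had a summed level of 774 to 953 CPM (counts scaled to library size by TMM) in Stra8KO and 1591 to 1907 CPM in Spo11KO. The 16 fibroblast markers, which include collagen genes and are made by feeder cells too, summed to 25262 to 25856 CPM with Veh and 40457 to 40992 with NRRA in Stra8KO cultures, beside 13318 to 13405 with Veh and 20636 to 21331 with NRRA in Spo11KO cultures. Markers of Sertoli cells summed to between 18.1 and 51.6 CPM over the 8 libraries, of macrophages to between 22.5 and 39.6 CPM and of endothelium to between 7.22 and 12.2 CPM, with Amh and Cldn11 at 1 to 11 counts in each library. The 5 markers of differentiating spermatogonia, of which Stra8 is 1, summed to 112 to 120 CPM with Veh and 330 to 343 with NRRA in Stra8KO cultures, beside 193 to 199 and 1082 to 1152 in Spo11KO cultures. Without Stra8 the other 4 summed to 322 to 335 CPM with NRRA in Stra8KO cultures and to 596 to 599 in Spo11KO cultures. In these bulk samples, fewer cells of a type and less RNA per cell cannot be told apart.

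Of the 44 genes, 39 had enough counts to be tested, and Wnt1, Wnt3a, Wnt6, Wnt8a and Dkk4 did not, with 0 to 10 counts in each library. Under NRRA, the ligand genes that moved mostly rose, the antagonist genes split in opposite directions, and the target Axin2 rose more in Spo11KO than in Stra8KO. Genes are called here where the edgeR quasi-likelihood test gave an adjusted p below 0.05. In Stra8KO, 19 of 39 were called higher under NRRA, against 21.6% of all 20588 tested genes, and 10 were called lower, against 20.2%. In Spo11KO, 18 were called higher, against 24.5%, and 9 lower, against 25.5%. Scaling by total counts, an alternative to TMM, took the Spo11KO split of the 39 to 21 higher and 9 lower. It took that of all tested genes from 5038 higher and 5241 lower to 6492 and 4033. The Stra8KO split of the 39 stayed at 19 and 10. With TMM, calls of at least 2-fold numbered 14 in each genotype, against a background of 10.5% in Stra8KO and 12.3% in Spo11KO. The median log2 fold change of the 39 was 0.31 in Stra8KO and 0.46 in Spo11KO, beside 0.01 over all tested genes in each. The 2 comparisons had no library in common, and 15 of the 39 were called higher in both, against 13.3% of all tested genes, 6 lower in both, against 13.7%, and 2 in opposite directions, against 3.11%.

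**Figure D1:**
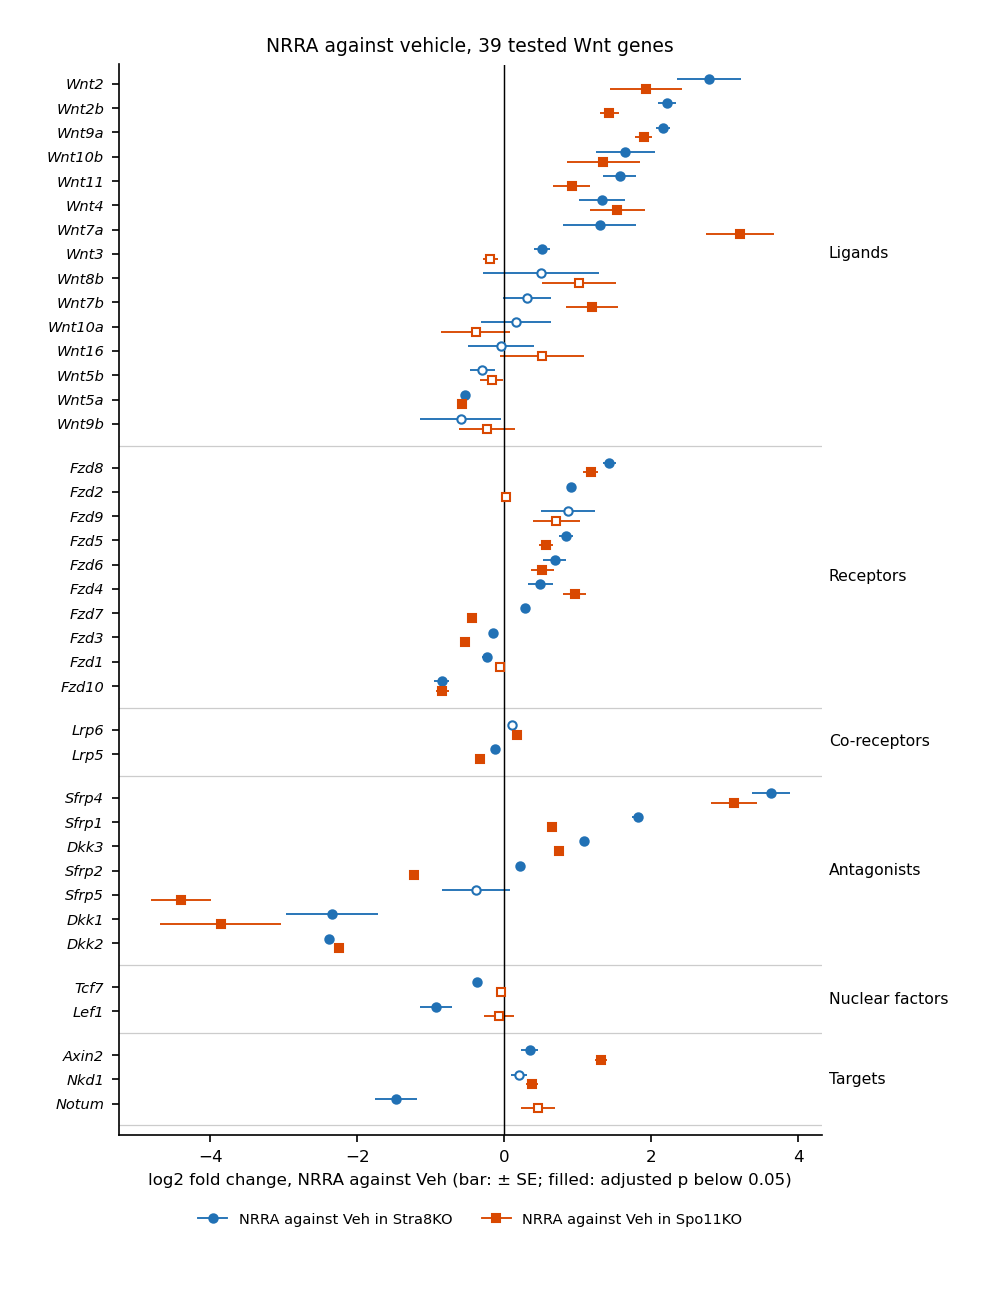
The log2 fold change of NRRA against Veh (horizontal axis) is drawn for the 39 tested genes by role, with circles for Stra8KO, squares for Spo11KO and bars for ± SE; filled symbols were called. Sfrp4 lies farthest to the right in Stra8KO at 3.63, Sfrp5 farthest to the left in Spo11KO at -4.40, and Dkk2 lies at -2.38 and -2.25.

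The upstream sequences of 5 members are shown: 3 ligand genes that rose in both genotypes, the antagonist gene with the largest fall common to both among those above 1 CPM, and the target with the largest genotype difference under NRRA. A link between these sequences and the changes was not tested. They were taken from RefSeq (GRCm38.p6), whose promoter table matched 29 of the 44 genes with 36 start sites. Each is the 250 bases before the start site, 5′ to 3′ on the strand of the gene. Capitals mark a TATA box (TATAAA, searched as printed) or a TCF/LEF core (CTTTGA, searched on both strands, so also written TCAAAG).
Wnt9a, chr11:59306680-59306929, plus strand: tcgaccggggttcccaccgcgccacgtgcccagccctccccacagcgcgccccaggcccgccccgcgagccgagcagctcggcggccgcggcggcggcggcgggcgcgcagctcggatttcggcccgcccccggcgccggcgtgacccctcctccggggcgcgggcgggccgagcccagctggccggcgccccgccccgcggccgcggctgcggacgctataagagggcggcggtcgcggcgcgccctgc
Wnt2b, chr3:104961710-104961959, minus strand: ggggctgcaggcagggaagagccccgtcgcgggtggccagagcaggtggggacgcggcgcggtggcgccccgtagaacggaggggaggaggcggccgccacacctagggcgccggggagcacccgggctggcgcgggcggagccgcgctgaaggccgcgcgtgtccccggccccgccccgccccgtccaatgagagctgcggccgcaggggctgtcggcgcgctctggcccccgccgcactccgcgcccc
Wnt11, chr7:98834862-98835111, plus strand, the first of 2 start sites: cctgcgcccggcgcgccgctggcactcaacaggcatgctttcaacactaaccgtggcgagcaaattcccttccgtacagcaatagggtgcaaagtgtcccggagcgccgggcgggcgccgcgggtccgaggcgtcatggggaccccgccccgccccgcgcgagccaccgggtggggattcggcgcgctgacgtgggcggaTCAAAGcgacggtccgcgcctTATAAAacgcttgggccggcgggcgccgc
Dkk2, chr3:132085042-132085291, plus strand: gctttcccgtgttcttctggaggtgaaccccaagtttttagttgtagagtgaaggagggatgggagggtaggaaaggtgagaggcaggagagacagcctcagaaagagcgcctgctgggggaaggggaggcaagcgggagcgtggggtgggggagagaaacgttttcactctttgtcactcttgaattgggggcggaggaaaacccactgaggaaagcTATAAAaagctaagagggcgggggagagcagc
Axin2, chr11:108920099-108920348, plus strand: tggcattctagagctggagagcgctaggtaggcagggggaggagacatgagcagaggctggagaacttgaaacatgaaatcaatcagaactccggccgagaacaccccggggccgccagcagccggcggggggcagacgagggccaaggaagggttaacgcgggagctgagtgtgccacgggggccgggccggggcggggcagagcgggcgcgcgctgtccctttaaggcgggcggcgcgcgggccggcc
The TATA box begins 32 bases before the start in Dkk2 and 29 bases before the first start site of Wnt11. It was found in 4 of the 36 windows of members and in 7.59% of all 32851 windows of the table. A TCF/LEF core begins 50 bases before the first start site of Wnt11, and it was found in 5 of 36 windows, beside 13.8% of all windows. The half-site of retinoic acid receptors (AGGTCA, both strands) was in 2 of 36, in front of Tcf7 and Wnt16, beside 14% of all windows. GC content was 84.4% in front of Wnt9a, 80.8% in front of Wnt2b, 70.8% in front of the first start site of Wnt11, 69.2% in front of Axin2 and 55.6% in front of Dkk2. The window of the second Wnt11 start site (chr7:98838595-98838844), not shown, held none of these motifs and had a GC content of 56.8%.

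Among the ligands, Wnt5a was the most abundant in every group and fell with NRRA, while Wnt9a, Wnt2b, Wnt11 and Wnt4 rose. Per length, Wnt5a stood at 41.2 CPM per kb of exon with Veh and 28.6 with NRRA in Stra8KO cultures, beside 19.0 with Veh and 12.8 with NRRA in Spo11KO cultures, above the next ligand in each library. Next in Stra8KO Veh came Wnt3 at 3.23 and Wnt9a at 2.90 CPM per kb, whose libraries overlapped. In Spo11KO Veh the next was Wnt3 at 4.43 CPM per kb. Under NRRA the second place was taken by Wnt9a, with 12.9 CPM per kb in Stra8KO and 6.45 in Spo11KO. The share of Wnt5a in the summed per-length level of the 19 ligands was 78.4% and 78.3% in the Stra8KO Veh libraries and 49.2% in both Stra8KO NRRA libraries. Spo11KO cultures had 61.7% and 65.2% with Veh, beside 41.2% and 40.4% with NRRA. The share of Wnt9a went from 5.09% and 5.93% to 22.9% and 21.6% in Stra8KO and from 6.53% and 4.91% to 20.3% and 20.9% in Spo11KO. These shares do not depend on library scaling, and Veh and NRRA did not overlap in either genotype. The sum itself was 51.7 to 58.2 CPM per kb in Stra8KO and 29.0 to 31.7 in Spo11KO.

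Wnt5a (ENSMUSG00000021994, chromosome 14, 28504750 to 28527448, plus strand, GRCm38) guides cell polarity and movement. It measured 317 and 328 CPM with Veh and 224 and 223 with NRRA in Stra8KO cultures, beside 149 and 148 with Veh and 102 and 97.5 with NRRA in Spo11KO cultures. The groups did not overlap, and the gene was lower with NRRA and higher in Stra8KO in each comparison. With NRRA it fell by 0.53 (SE 0.0394, adjusted p = 2.68e-16) on the log2 scale in Stra8KO and fell by 0.57 (SE 0.0420, adjusted p = 1.59e-16) in Spo11KO. Its exons overlap those of the antisense gene Gm2670, which had 887 counts beside 35512 for Wnt5a, and the strand setting of the counting is not stated.

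Wnt9a (ENSMUSG00000000126, chromosome 11, 59306928 to 59333552, plus strand), which acts through beta-catenin in joint and blood development, measured 8.77 and 10.6 CPM with Veh and 44.4 and 41.6 CPM with NRRA in Stra8KO. In Spo11KO it measured 6.70 and 4.74 CPM with Veh and 21.5 CPM in both NRRA libraries. Every NRRA library was above every Veh library. The log2 fold change was 2.16 ± 0.0985 (SE, adjusted p = 3.07e-24) in Stra8KO and 1.90 ± 0.113 (adjusted p = 7.10e-20) in Spo11KO. Wnt2b (ENSMUSG00000027840, chromosome 3, 104945272 to 104961921, minus strand), a ligand of the beta-catenin branch, went from 4.29 and 5.44 CPM to 21.5 and 23.6 CPM in Stra8KO. In Spo11KO it went from 4.08 and 4.70 CPM to 12.0 and 11.6 CPM. The Veh groups of the 2 genotypes overlapped while the NRRA groups did not. Its log2 fold change was 2.22 ± 0.125 (adjusted p = 6.67e-21) in Stra8KO and 1.43 ± 0.132 (adjusted p = 3.31e-13) in Spo11KO, and the rise differed between genotypes by 0.79 ± 0.191 (adjusted p = 0.00114).

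Wnt11, a ligand of the branch without beta-catenin, stood lower, at 1.92 and 1.51 CPM with Veh and 5.21 and 5.08 with NRRA in Stra8KO cultures, beside 1.56 and 1.04 with Veh and 2.20 and 2.73 with NRRA in Spo11KO cultures. It rose in both genotypes, by a log2 fold change of 1.57 ± 0.227 (adjusted p = 8.94e-08) in Stra8KO and 0.92 ± 0.254 (adjusted p = 0.00200) in Spo11KO. The Spo11KO call was lost without Spo11KO Veh replicate 2 (0.65, adjusted p = 0.0747) and without Spo11KO NRRA replicate 2 (0.73, adjusted p = 0.0539). Wnt4, which acts in gonad and kidney development, measured 0.850 and 0.906 CPM with Veh and 2.12 and 2.31 with NRRA in Stra8KO cultures, beside 0.463 and 0.435 with Veh and 1.23 and 1.40 with NRRA in Spo11KO cultures. It rose by 1.33 ± 0.317 (adjusted p = 5.08e-04) and 1.54 ± 0.372 (adjusted p = 4.51e-04) on the log2 scale. Wnt7b, known from lung and placenta development, measured 0.421 and 0.870 CPM with Veh and 1.62 and 1.36 CPM with NRRA in Spo11KO. That rise (1.20 ± 0.352, adjusted p = 0.00354) was not called without Spo11KO Veh replicate 1 (0.77, adjusted p = 0.129) and stood at 1.80 without Spo11KO Veh replicate 2. In Stra8KO it was 1.39 and 1.11 CPM with Veh and 1.40 and 1.71 CPM with NRRA, a log2 difference of 0.31 that was not called (adjusted p = 0.480).

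Of the other 9 tested ligand genes, Wnt2, Wnt7a and Wnt10b, each below 1 CPM on average and at 2 to 60 counts per library, were called higher in both genotypes. The Wnt7a call in Stra8KO (1.30, adjusted p = 0.0309) was lost without Stra8KO Veh replicate 1 (0.86) or Stra8KO NRRA replicate 1 (1.14), and the Wnt10b call in Spo11KO (1.35, adjusted p = 0.0191) without Spo11KO Veh replicate 2 (0.82) or Spo11KO NRRA replicate 2 (0.62). Wnt3, a ligand of the beta-catenin branch, was called higher in Stra8KO (0.51 ± 0.111, adjusted p = 1.44e-04), with 10.2 and 9.62 CPM in Veh and 14.2 and 14.1 CPM in NRRA, and was not called in Spo11KO. The remaining 5 were called in neither NRRA comparison. In all, 8 of the 15 tested ligand genes were called higher and 1 lower in each genotype. Over all tested genes, the shares called higher and lower were 21.6% and 20.2% in Stra8KO and 24.5% and 25.5% in Spo11KO. The median log2 fold change over the 15 was 0.51 in Stra8KO and 1.02 in Spo11KO.

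Among the receptors, Fzd7, Fzd2 and Fzd1 together held most of the per-length level in both genotypes, and Fzd10 and Fzd3 stood higher in Spo11KO than in Stra8KO. Fzd7 led in Stra8KO Veh at 26.5 CPM per kb, followed by Fzd2 at 20.6 and Fzd1 at 19.7. In Spo11KO Veh, Fzd7 at 22.3 and Fzd2 at 21.3 overlapped, and Fzd10 at 9.32 came before Fzd1 at 7.97. With NRRA, Fzd2 came first in both genotypes, at 38.5 CPM per kb in Stra8KO and 21.7 in Spo11KO, and Fzd7 second at 32.1 and 16.4. The summed per-length level of the 10 receptors was 82.8 and 80.8 CPM per kb with Veh and 106 and 105 with NRRA in Stra8KO. In Spo11KO it went the other way, from 75.3 and 72.0 with Veh to 64.5 and 66.2 with NRRA.

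Fzd2 (ENSMUSG00000050288, chromosome 11, 102604396 to 102608058, plus strand) measured 75.7 and 75.0 CPM with Veh and 145 and 137 CPM with NRRA in Stra8KO cultures, beside 81.1 and 74.8 with Veh and 78.9 and 80.2 with NRRA in Spo11KO cultures. The Stra8KO NRRA libraries thus stood above the other 6, which lay between 74.8 and 81.1 CPM. The rise was 0.91 ± 0.0496 (adjusted p = 2.73e-21) on the log2 scale in Stra8KO, and it exceeded the Spo11KO difference by 0.88 ± 0.0706 (adjusted p = 1.94e-14). Fzd7, the receptor best known from stem cells of the intestine, rose in Stra8KO from 121 and 119 to 142 and 149 CPM (0.28 ± 0.0455, adjusted p = 1.33e-06). It fell in Spo11KO from 104 and 98.3 to 74.0 and 74.7 CPM (fell by 0.44 on the log2 scale, SE 0.0473, adjusted p = 2.91e-11).

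Fzd8 rose in both genotypes, from 12.3 and 14.8 to 35.2 and 37.5 CPM in Stra8KO (1.43 ± 0.0898, adjusted p = 5.57e-19) and from 7.96 and 7.79 to 17.4 and 18.3 CPM in Spo11KO (1.18 ± 0.103, adjusted p = 4.97e-14). Fzd10 fell in both, from 17.5 and 17.2 to 10.0 and 9.28 CPM in Stra8KO and from 30.1 and 30.5 to 15.9 and 17.9 CPM in Spo11KO. It was 1.80-fold lower with NRRA in Stra8KO (adjusted p = 1.34e-09) and 1.79-fold lower in Spo11KO (adjusted p = 2.48e-12). Fzd3, a receptor of axon guidance and cell polarity, fell in Spo11KO from 96.2 and 98.0 to 68.1 and 66.5 CPM (fell by 0.53, SE 0.0519, adjusted p = 2.12e-12). In Stra8KO it measured 49.6 and 45.9 CPM with Veh and 44.5 and 41.5 CPM with NRRA, and that difference of -0.15 (adjusted p = 0.0387) was not called without Stra8KO Veh replicate 1 or without Stra8KO NRRA replicate 2 (-0.10 in both, adjusted p = 0.375 and 0.315), nor with the DESeq2 Wald test (adjusted p = 0.0503). Fzd1 measured 84.1 and 81.5 CPM with Veh and 70.3 and 69.6 with NRRA in Stra8KO cultures, beside 33.6 and 33.3 with Veh and 30.5 and 33.6 with NRRA in Spo11KO cultures. It was lower with NRRA in Stra8KO (fell by 0.24, SE 0.0554, adjusted p = 2.78e-04) and not called in Spo11KO (-0.06, adjusted p = 0.479). Fzd5 and Fzd6 were called higher in both genotypes with log2 fold changes of 0.52 to 0.84, Fzd4 was called higher in both (0.49 and 0.96), and Fzd9, at 1.19 CPM on average, was called in neither. The Fzd4 call in Stra8KO was lost without Stra8KO Veh replicate 2 (0.30), Stra8KO NRRA replicate 1 (0.50) or Stra8KO NRRA replicate 2 (0.49). Exons of Fzd5 overlap the antisense gene Gm38058, which had 701 counts beside 3162.

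The co-receptors differed little between groups. Lrp5 measured 191 and 182 CPM with Veh and 165 and 176 with NRRA in Stra8KO cultures, beside 186 and 190 with Veh and 151 and 147 with NRRA in Spo11KO cultures. It fell by 0.33 (SE 0.0419, adjusted p = 2.67e-09) on the log2 scale with NRRA in Spo11KO. The Stra8KO difference of -0.13 (adjusted p = 0.0126) was not called without Stra8KO Veh replicate 1 (-0.09, adjusted p = 0.215) or without Stra8KO NRRA replicate 1 (-0.08, adjusted p = 0.266). Lrp6 measured 116 to 132 CPM in the 8 libraries, with a rise of 0.18 ± 0.0440 (adjusted p = 6.08e-04) in Spo11KO and a difference of 0.11 that was not called in Stra8KO (adjusted p = 0.0549).

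The antagonists changed in composition with NRRA. Dkk2 was the leading antagonist per length in Stra8KO Veh, at 58.1 CPM per kb, and came second after Sfrp2 in Spo11KO Veh, at 26.6 beside 30.7. With NRRA the first place went to Dkk3 in both genotypes, at 50.2 CPM per kb in Stra8KO and 25.4 in Spo11KO, followed by Sfrp2, Sfrp1 and Dkk2. The share of Dkk2 in the summed per-length level of the 8 antagonists went from 54.6% and 53.3% to 11.2% and 10.5% in Stra8KO and from 31.6% and 34.5% to 10.8% and 9.95% in Spo11KO. The share of Dkk3 went from 21.5% and 22.3% to 49.0% and 48.7% in Stra8KO and from 18.7% and 18.8% to 46.2% and 47.6% in Spo11KO. The summed level was 109 and 106 CPM per kb with Veh and 103 and 102 with NRRA in Stra8KO cultures, beside 79.4 and 81.4 with Veh in Spo11KO cultures, and it was lowest in the Spo11KO cultures with NRRA, at 53.2 in 1 library and within 2 CPM per kb of that in the other.

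**Figure D2:**
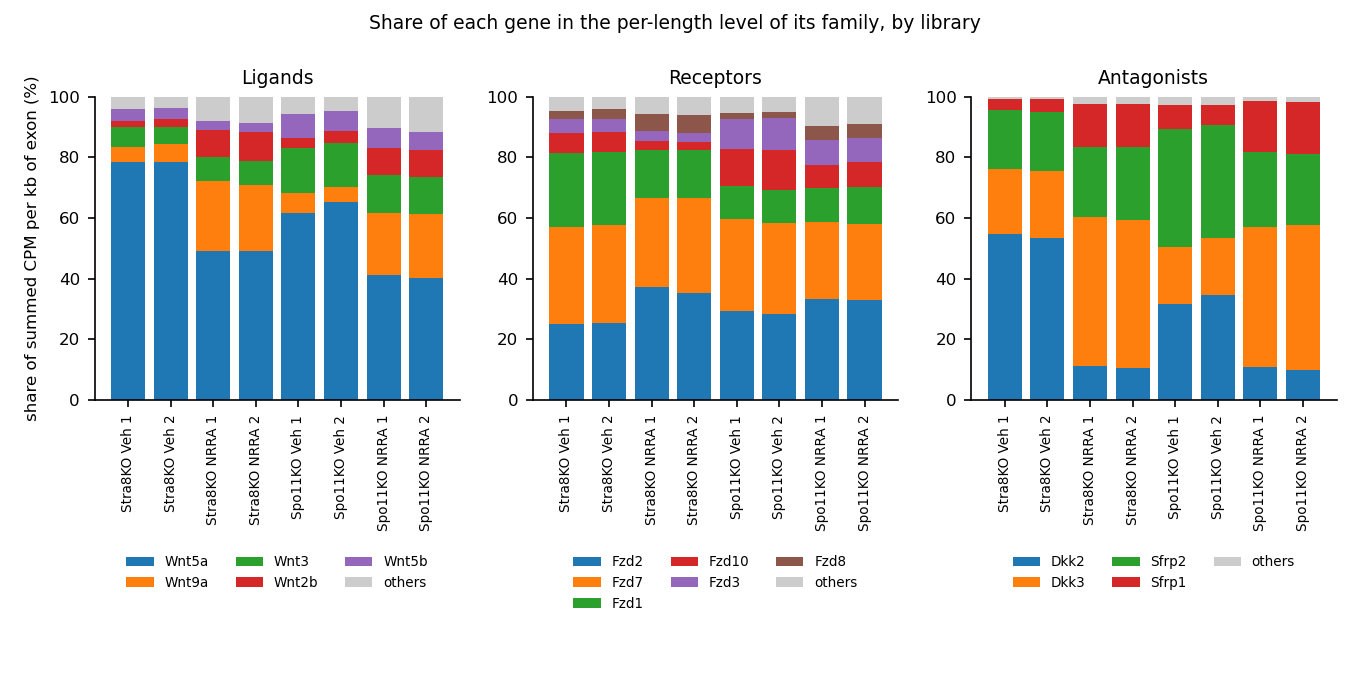
Stacked bars give, for each of the 8 libraries, the share in percent of each gene in the summed CPM per kb of exon of the 19 ligands, 10 receptors and 8 antagonists. The Wnt5a and Dkk2 blocks are smaller in the 4 NRRA libraries than in the Veh libraries of the same genotype, and the Wnt9a and Dkk3 blocks are larger.

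Dkk2 (ENSMUSG00000028031, chromosome 3, 132085292 to 132180304, plus strand) encodes a ligand of the co-receptor Lrp6 that blocks or, in some settings, aids the signal. It measured 220 and 210 CPM with Veh and 42.9 and 39.7 with NRRA in Stra8KO cultures, beside 93.0 and 104 with Veh and 21.3 and 20.3 with NRRA in Spo11KO cultures. No groups overlapped. It fell by 2.38 (SE 0.0549, adjusted p = 7.76e-37) on the log2 scale in Stra8KO and fell by 2.25 (SE 0.0606, adjusted p = 7.05e-34) in Spo11KO, and the difference between these falls was not called (-0.14 ± 0.0839, adjusted p = 0.260). Dkk1, the classic blocker of Lrp6, had 16 and 20 counts with Veh and 1 and 6 with NRRA in Stra8KO cultures, beside 10 and 18 with Veh and 1 in both libraries with NRRA in Spo11KO cultures. In Spo11KO the Veh libraries thus held 28 counts and the NRRA libraries 2, a ratio per total count of 15.5 with an exact 95% interval of 3.92 to 135 that covers counting error only. Its Stra8KO call (-2.34, adjusted p = 0.00198) was lost without Stra8KO NRRA replicate 1 (-1.61, adjusted p = 0.0823) and stood at -4.01 without Stra8KO NRRA replicate 2.

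Dkk3 (ENSMUSG00000030772, chromosome 7, 112116017 to 112159057, minus strand), a divergent family member with no settled role in Wnt signalling, rose in both genotypes. It went from 78.8 and 79.7 to 170 and 167 CPM in Stra8KO and from 49.8 and 51.5 to 82.5 and 88.0 CPM in Spo11KO. The log2 fold change was 1.09 ± 0.0476 (adjusted p = 3.24e-25) in Stra8KO and 0.75 ± 0.0509 (adjusted p = 7.42e-18) in Spo11KO. Sfrp4, whose product binds Wnt ligands in bone and other connective tissue, was low with Veh, at 9 and 19 counts in Stra8KO and 11 and 7 in Spo11KO. With NRRA it had 177 and 173 counts in Stra8KO and 83 and 106 in Spo11KO. These rises were 3.63 ± 0.257 (adjusted p = 4.58e-17) and 3.13 ± 0.314 (adjusted p = 4.20e-12) on the log2 scale. Without Stra8KO Veh replicate 2 the Stra8KO value was 4.34.

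The remaining Sfrp genes responded differently in the 2 genotypes. Sfrp1 (ENSMUSG00000031548, chromosome 8, 23411502 to 23449632, plus strand) went from 17.0 and 19.1 to 64.0 and 63.1 CPM in Stra8KO and from 27.4 and 23.5 to 39.3 and 40.6 CPM in Spo11KO. Stra8KO was thus below Spo11KO with Veh and above it with NRRA. The rise was 1.82 ± 0.0750 (adjusted p = 2.87e-26) in Stra8KO and 0.65 ± 0.0714 (adjusted p = 5.34e-11) in Spo11KO, which differed by 1.16 ± 0.105 (adjusted p = 7.91e-13). Sfrp2 (ENSMUSG00000027996, chromosome 3, 83766321 to 83774316, plus strand) measured 45.7 and 44.5 CPM with Veh and 51.9 and 53.3 CPM with NRRA in Stra8KO. In Spo11KO it measured 66.7 and 65.3 CPM with Veh and 28.1 and 28.0 CPM with NRRA. It was thus called in opposite directions, with a rise of 0.22 ± 0.0604 (adjusted p = 0.00224) in Stra8KO and a fall in Spo11KO (fell by 1.23, SE 0.0600, adjusted p = 2.35e-23). The difference between them was 1.46 ± 0.0852 (adjusted p = 2.26e-19). Exons of Sfrp2 overlap the antisense gene Gm26771, which had 1275 counts beside 8770.

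Sfrp5 reached 87 and 79 counts with Veh in Spo11KO cultures against 2 and 7 with NRRA, and Stra8KO cultures had 23 and 7 with Veh against 12 and 11 with NRRA. The fall in Spo11KO took it from the highest of the 4 groups to the lowest (fell by 4.40, SE 0.411, adjusted p = 4.66e-13), and without Spo11KO NRRA replicate 2 the value was -5.44. In Stra8KO the Veh and NRRA libraries overlapped (-0.38, adjusted p = 0.552), and the sign turned without Stra8KO Veh replicate 1 (0.61, adjusted p = 0.524). The difference between genotypes was 4.03 ± 0.684 (adjusted p = 6.71e-06), with 5.02 without Stra8KO Veh replicate 1 and 5.05 without Spo11KO NRRA replicate 2. The 8 markers of undifferentiated spermatogonia moved with it: in Spo11KO their summed level went from between 1310 and 1325 CPM to between 284 and 288 CPM and 8 of 8 were called lower, while in Stra8KO it went from between 606 and 615 to between 563 and 569 CPM, with 3 called higher and 4 lower. Of all tested genes, 25.5% were called lower in Spo11KO, and 21.6% were called higher and 20.2% lower in Stra8KO. The part of undifferentiated spermatogonia in the Sfrp5 result was not tested.

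**Figure D3:**
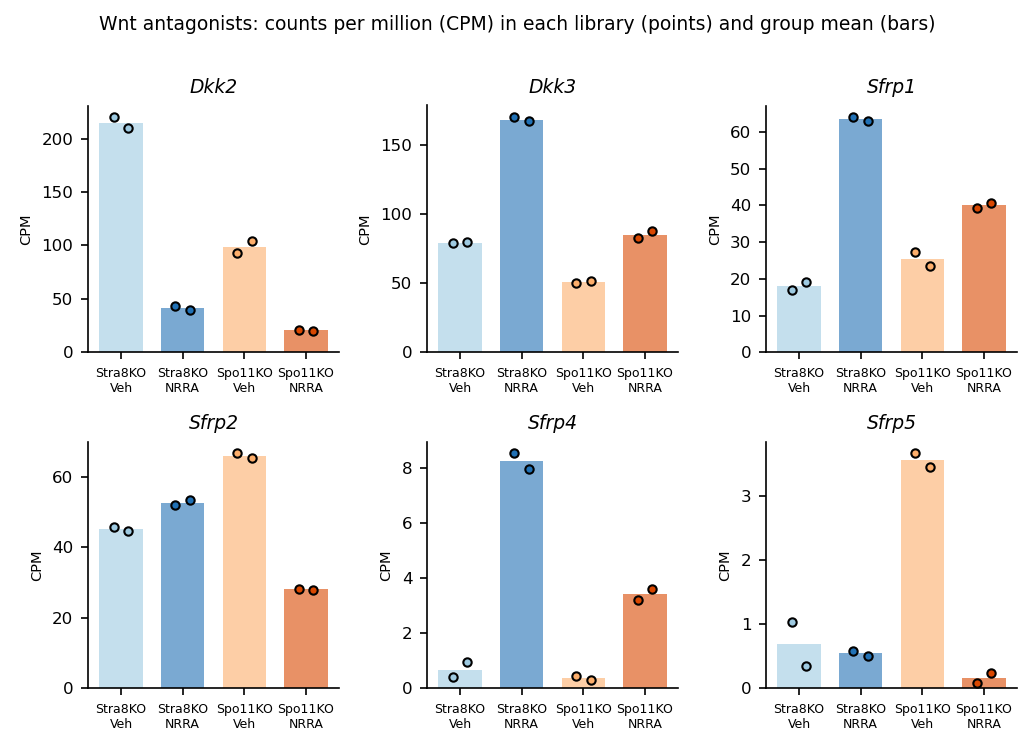
Each panel gives the CPM of 1 antagonist gene, with points for the 2 libraries and bars for the mean of each group; the vertical axes start at 0 and differ between panels. Dkk2 is lower and Dkk3, Sfrp1 and Sfrp4 are higher in NRRA than in Veh in both genotypes, while Sfrp2 and Sfrp5 are lower with NRRA in Spo11KO.

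Markers of other cells moved with NRRA too. Of the 16 fibroblast markers, 10 were called higher and 4 lower in Stra8KO (median log2 fold change 0.35), and 11 higher and 5 lower in Spo11KO (median 0.23). For this and the other marker lists, the shares of all tested genes called higher and lower were 21.6% and 20.2% in Stra8KO. In Spo11KO they were 24.5% and 25.5%. Of the 4 smooth muscle markers 3 were called higher in each genotype, led by the contractile actin gene Acta2, from 43.6 ± 4.02 to 823 ± 26.2 CPM in Stra8KO and from 24.0 ± 0.584 to 399 ± 13.7 CPM in Spo11KO (mean ± SD, n = 2). The pan-germ markers had medians of 0.18 and 0.17, with 5 and 6 of 8 called higher. The 7 Sertoli markers summed to 45.4 to 51.6 CPM with Veh and 33.4 to 34.7 with NRRA in Stra8KO cultures, beside 37.6 to 38.2 with Veh and 18.1 to 19.4 with NRRA in Spo11KO cultures, and 1 of the 5 tested was called lower in each genotype. The 5 macrophage markers went from between 36.2 and 39.6 to between 34.1 and 35.6 CPM in Stra8KO and from between 28.1 and 30.7 to between 22.5 and 24.6 CPM in Spo11KO. The 4 endothelial markers stood at 11.2 to 11.5 CPM with Veh and 11.1 to 12.2 with NRRA in Stra8KO cultures, and at 12.0 to 12.1 and 7.22 to 7.78 in Spo11KO cultures. Of these genes, the endothelial adhesion gene Pecam1 was higher with NRRA in Stra8KO (0.92, adjusted p = 8.91e-06) and lower in Spo11KO (-2.15, adjusted p = 1.09e-12), a difference of 3.08 ± 0.267 on the log2 scale (adjusted p = 2.21e-13). The endothelial marker Cdh5 went the other way, at -2.17 in Stra8KO (adjusted p = 2.35e-11) with an interaction of -1.75 (adjusted p = 1.71e-05). Of the 4 endothelial markers, 2 had a called interaction on the side of Stra8KO, 1 on the other side and 1 was not called. Wt1, a transcription factor of Sertoli cells, was higher in Stra8KO (1.65, adjusted p = 2.78e-13) and not called in Spo11KO (-0.07, adjusted p = 0.767), a difference of 1.71 ± 0.227 (adjusted p = 3.45e-08). The other 4 tested Sertoli markers had no called interaction, and among them Sox9 fell in both genotypes (-1.29 in Stra8KO and -1.54 in Spo11KO). The part of feeder or other somatic cells in the NRRA changes of the Wnt genes, and in their differences between genotypes, was not tested.

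The targets Axin2 and Notum differed between the genotypes in their response to NRRA. Axin2 (ENSMUSG00000000142, chromosome 11, 108920349 to 108950783, plus strand), a scaffold of the complex that degrades beta-catenin and a widely used readout of the pathway, measured 8.54 and 8.01 CPM with Veh and 11.4 and 9.65 CPM with NRRA in Stra8KO. In Spo11KO it measured 14.6 and 15.1 CPM with Veh and 37.9 and 36.5 CPM with NRRA. The 4 groups did not overlap, and the Spo11KO NRRA libraries were at least 36.5 CPM while the other 6 reached at most 15.1 CPM. Axin2 rose by 1.32 ± 0.0838 (adjusted p = 7.22e-19) on the log2 scale in Spo11KO. The rise of 0.35 ± 0.116 (adjusted p = 0.0138) in Stra8KO was not called without Stra8KO Veh replicate 2 (0.30, adjusted p = 0.101), without Stra8KO NRRA replicate 1 (0.22, adjusted p = 0.248) or with the DESeq2 Wald test (0.32, adjusted p = 0.0723). The response in Stra8KO was smaller by 0.97 on the log2 scale (interaction -0.97 ± 0.145, adjusted p = 4.66e-07). Exons of Axin2 overlap the antisense gene Gm11670, which had 308 counts beside 3541.

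Notum (ENSMUSG00000042988, chromosome 11, 120653788 to 120661175, minus strand), a secreted enzyme that strips the lipid from Wnt ligands, had 51 and 62 counts with Veh and 23 and 18 with NRRA in Stra8KO cultures, beside 45 and 56 with Veh and 76 and 88 with NRRA in Spo11KO cultures. It fell in Stra8KO (fell by 1.47, SE 0.287, adjusted p = 3.20e-05) and was not called in Spo11KO (0.46 ± 0.228, adjusted p = 0.0935). The responses differed (-1.92 ± 0.368, adjusted p = 5.13e-05). Notum overlaps the antisense genes Notumos and Myadml2os, with 148 and 88 counts beside 419 for Notum itself, so its level is uncertain. Nkd1, an inhibitor of Dvl proteins, measured 13.6 and 13.8 CPM with Veh and 13.7 and 17.8 with NRRA in Stra8KO cultures, beside 22.6 and 21.4 with Veh and 28.3 and 28.8 with NRRA in Spo11KO cultures. It rose in Spo11KO (0.38 ± 0.0845, adjusted p = 1.79e-04), and in Stra8KO the libraries of Veh and NRRA overlapped (0.20, adjusted p = 0.118).

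The nuclear factor Tcf7 (ENSMUSG00000000782, chromosome 11, 52252371 to 52283014, minus strand), which binds DNA with beta-catenin, stood at 91.9 and 94.9 CPM with Veh and 72.1 and 72.3 with NRRA in Stra8KO cultures, beside 185 and 182 with Veh and 174 and 184 with NRRA in Spo11KO cultures. It fell with NRRA in Stra8KO (fell by 0.37, SE 0.0481, adjusted p = 6.87e-09), and in Spo11KO the libraries overlapped (-0.04, adjusted p = 0.501). Lef1, a factor of the same family, had 91 and 88 counts with Veh and 54 and 40 with NRRA in Stra8KO cultures, beside 66 and 74 with Veh and 72 and 86 with NRRA in Spo11KO cultures. It fell in Stra8KO (fell by 0.93, SE 0.218, adjusted p = 3.89e-04) and was not called in Spo11KO (-0.07, adjusted p = 0.816). The difference of -0.87 (adjusted p = 0.0278) between genotypes was lost without Stra8KO Veh replicate 2 (-0.81, adjusted p = 0.0861), Stra8KO NRRA replicate 2 (-0.64, adjusted p = 0.189), Spo11KO Veh replicate 1 (-0.76, adjusted p = 0.0954) or Spo11KO NRRA replicate 2 (-0.82, adjusted p = 0.0776), and with the DESeq2 Wald test (-0.90, adjusted p = 0.110). The antisense gene Lef1os1 overlaps its exons, with 154 counts beside 571.

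**Figure D4:**
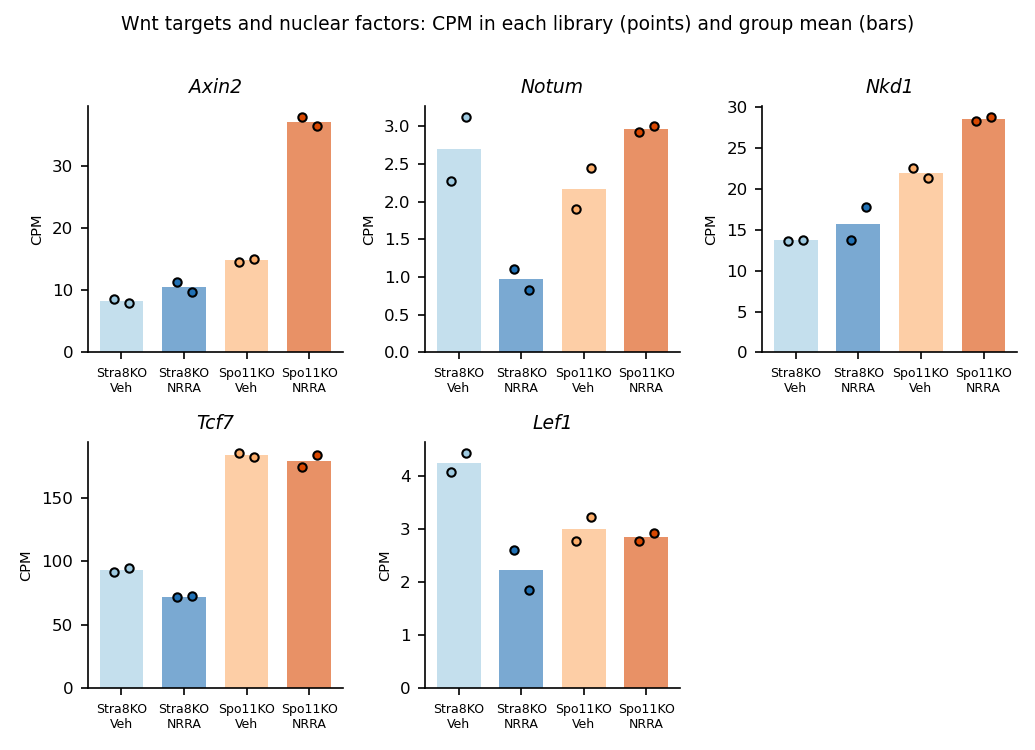
Each panel gives the CPM of a target or nuclear factor gene, with points for the 2 libraries and bars for the mean of each group; the vertical axes start at 0 and differ between panels. The Spo11KO NRRA points of Axin2 lie at 36.5 and 37.9 CPM, and the Stra8KO NRRA points of Notum lie below the other groups.

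Between genotypes, 5 of the 15 tested ligand genes were called higher in Stra8KO and 2 lower with Veh, and 8 and 3 with NRRA. Of the 10 receptor genes, 3 were called higher and 2 lower with Veh, and 4 and 3 with NRRA. The shares of all tested genes called higher and lower were 31.6% and 30.7% with Veh and 35.0% and 28.9% with NRRA. The called targets were lower. With Veh, 11 of the 39 were called higher in Stra8KO, against 31.6% of all tested genes, and 10 lower, against 30.7%, with 7 calls of at least 2-fold against 16.2%. With NRRA, 19 were called higher, against 35.0%, and 10 lower, against 28.9%, with 15 of at least 2-fold against 18.5%. Scaling by total counts changed these splits to 9 higher and 13 lower with Veh and to 16 higher and 13 lower with NRRA. It shifts the median of all genes by -0.114 and -0.207 on the log2 scale. All tested genes then split into 5417 higher and 7544 lower with Veh and 5348 and 8183 with NRRA. The median of the 39 was 0.05 with Veh and 0.48 with NRRA, beside 0.00 and 0.07 over all tested genes. In the same comparisons each of the 16 fibroblast markers was higher in Stra8KO by the test, in both media (median 0.96 in each), and the 8 pan-germ markers were called lower, by -1.15 to -0.85 with Veh and by -1.22 to -0.56 with NRRA on the log2 scale. With Veh, 14 of the 39 lay within the range of the fibroblast markers (0.45 to 1.55) and 4 within that of the pan-germ markers (-1.15 to -0.85). Among the 14 were Dkk1, Sfrp4, Wnt7a and Wnt10b, which were not called with Veh. With NRRA the numbers were 10 (0.78 to 1.09) and 4 (-1.22 to -0.56). The share of all tested genes within these ranges was not counted, so these numbers have no background beside them. The part of either cell type in the genotype differences was not tested.

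Wnt5a was 2.17-fold higher in Stra8KO with Veh and 2.24-fold with NRRA (log2 1.12 ± 0.0403 and 1.16 ± 0.0415, adjusted p = 1.74e-28 and 1.10e-28). Dkk2 was 2.18-fold and 1.99-fold higher, and Fzd1 2.48-fold and 2.18-fold higher. Of these genes, each library of Stra8KO was above each library of Spo11KO in the same medium. Wnt9a, Dkk3 and Fzd8 were likewise called higher in both media, by 1.56-fold to 2.04-fold. In the other direction, the log2 differences with Veh and with NRRA were -1.02 and -0.65 for Fzd3, -0.80 and -0.81 for Fzd10, -0.68 and -0.86 for Nkd1, and -0.98 and -1.31 for Tcf7, each called. Axin2 was lower by 1.79-fold with Veh (-0.84 ± 0.108, adjusted p = 2.28e-09) and by 3.53-fold with NRRA (-1.82 ± 0.0904, adjusted p = 3.24e-23). With NRRA its difference lay below the pan-germ marker range, which ran from -1.22 to -0.56. So did those of Notum (-1.61 ± 0.273, adjusted p = 1.18e-06) and, close to the edge, Tcf7 (-1.31). Wnt8b (-1.63) and Wnt9b (-1.35), both below 1 CPM on average, lay below it too. The part of germ cells in these differences was not tested.

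Several of the ligand calls between genotypes were lost when 1 library was left out. With Veh, Wnt3, Wnt5a and Wnt9a kept their calls under every alternative. The Wnt4 difference with Veh (0.96 ± 0.418, adjusted p = 0.0435) was lost without any 1 of the libraries except those of Spo11KO NRRA (adjusted p from 0.0513 to 0.136), and that with NRRA (0.75, adjusted p = 0.0188) was lost without Stra8KO NRRA replicate 2 (0.68) or Spo11KO NRRA replicate 1 (0.66). Wnt7b with Veh (0.96) was not called without Stra8KO Veh replicate 1 (0.78, adjusted p = 0.174) or Spo11KO Veh replicate 1 (0.52, adjusted p = 0.317), and the same was true of Wnt16 (1.46, then 0.98 and 1.15, adjusted p = 0.259 and 0.138). Wnt9b, 2.01-fold lower in Stra8KO with Veh (adjusted p = 0.0439), was not called without any 1 of the 4 Veh libraries or either Spo11KO NRRA library (adjusted p from 0.0510 to 0.262), and with NRRA, at 2.55-fold lower, it was not called without Stra8KO NRRA replicate 2 (-1.13) or Spo11KO NRRA replicate 2 (-1.21). With NRRA, calls were also lost for Wnt7a without Stra8KO NRRA replicate 2 (-0.99) or Spo11KO NRRA replicate 2 (-0.93), for Wnt8b without Stra8KO NRRA replicate 1 (-1.40) or Spo11KO NRRA replicate 2 (-1.61), and for Wnt10b without Stra8KO NRRA replicate 2 (1.03) or Spo11KO NRRA replicate 1 (0.79). Wnt2, Wnt2b, Wnt5a, Wnt9a and Wnt11 kept their calls with NRRA under every alternative. Of the other genes, the Fzd4 call with NRRA (-0.42, adjusted p = 0.0124) was lost without either Stra8KO NRRA library or Spo11KO NRRA replicate 1 (-0.34, adjusted p = 0.101), and the Lef1 call with Veh (0.50, adjusted p = 0.0291) without either Stra8KO Veh library or Spo11KO Veh replicate 1 (0.40, adjusted p = 0.174).

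Several genes changed their order between media. Sfrp1, Sfrp2, Sfrp5 and Wnt3 were called lower in Stra8KO with Veh and higher with NRRA, with log2 differences of -0.49 and 0.67 for Sfrp1, -0.55 and 0.91 for Sfrp2, and -2.32 and 1.71 for Sfrp5. The Sfrp5 value with Veh was -3.31 without Stra8KO Veh replicate 1. Its value with NRRA was not called without Stra8KO NRRA replicate 1 (1.61, adjusted p = 0.0527) or without Spo11KO NRRA replicate 1 (1.16, adjusted p = 0.119) and was 2.73 without Spo11KO NRRA replicate 2. The Wnt3 difference with NRRA of 0.25 (adjusted p = 0.0337) was lost under 8 alternatives, among them DESeq2 size factors (0.23, adjusted p = 0.0524), total counts (0.04, adjusted p = 0.750) and leaving out Stra8KO NRRA replicate 1 (0.24), Stra8KO NRRA replicate 2 (0.25) or Spo11KO NRRA replicate 2 (0.19). Lrp5 was higher in Stra8KO with NRRA by 0.19 (adjusted p = 1.24e-04), and this turned to -0.02 with scaling by total counts. Under NRRA, 6 of the 7 tested antagonist genes were called higher in Stra8KO and none lower, against 35.0% and 28.9% of all tested genes. The other was Dkk1 at 1 to 6 counts. With Veh, 2 were called higher and 3 lower, against 31.6% and 30.7% of all tested genes. The 3 targets were called lower in Stra8KO under NRRA, and 2 of 3 under Veh, against 28.9% and 30.7% of all tested genes called lower.

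**Figure D5:**
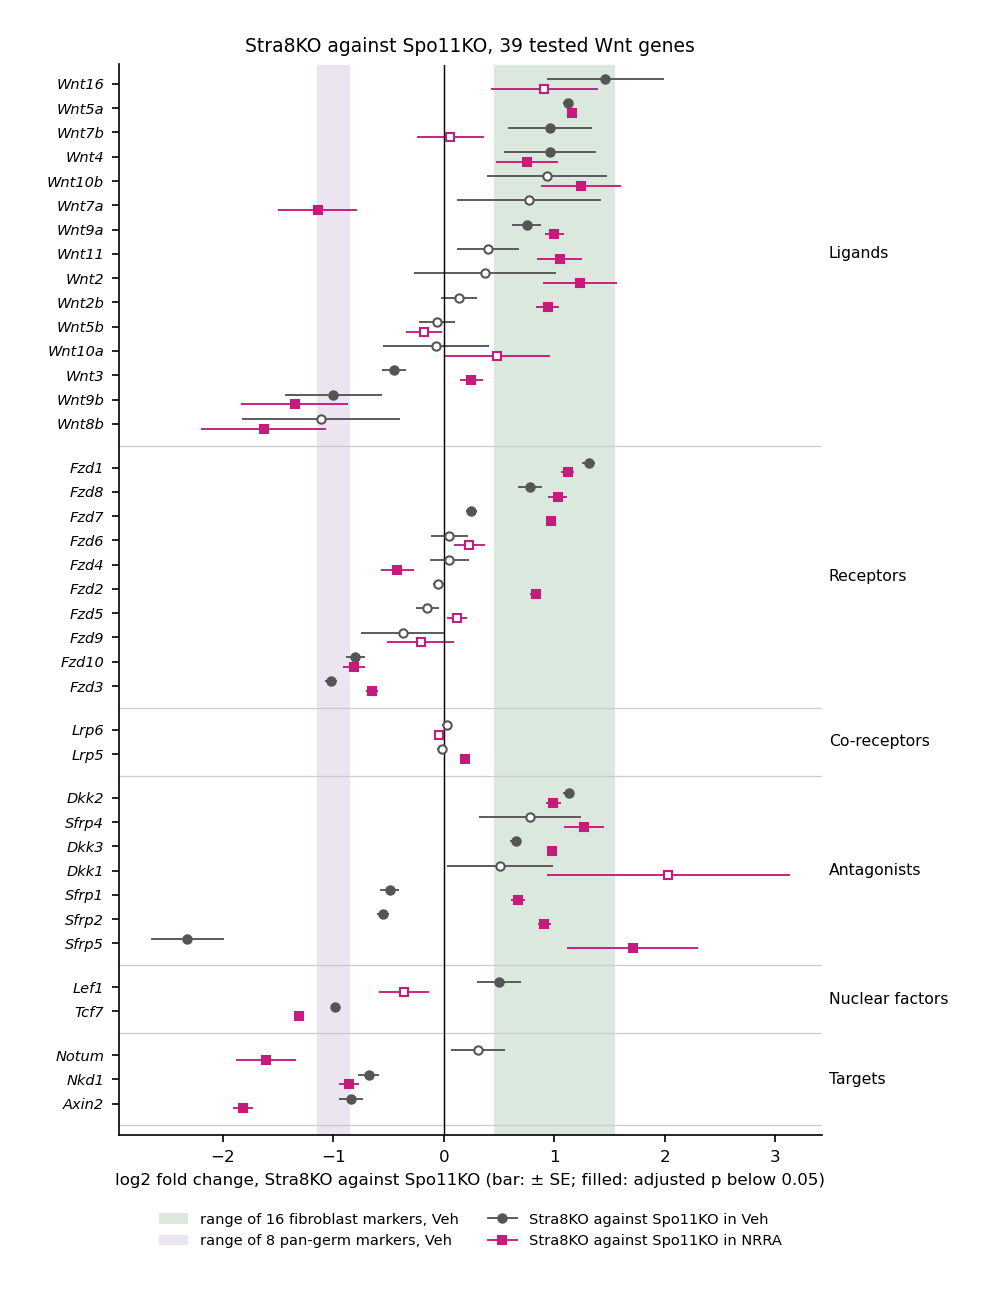
The log2 fold change of Stra8KO against Spo11KO (horizontal axis) is drawn for the 39 tested genes with circles for Veh, squares for NRRA and bars for ± SE; filled symbols were called. The shaded bands span the fibroblast markers (0.45 to 1.55) and the pan-germ markers (-1.15 to -0.85) in Veh only. The ranges of these markers with NRRA, 0.78 to 1.09 and -1.22 to -0.56, are not drawn. With Veh, Wnt5a, Fzd1 and Dkk2 lie in the fibroblast band. Axin2 with NRRA lies at -1.82, below the pan-germ range with NRRA.

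The NRRA response was tested for a difference between genotypes in each gene. Of the 39, 10 had a log2 fold change called higher in Stra8KO than in Spo11KO, against 14.8% of all tested genes, and 4 lower, against 10.3%. With scaling by total counts the split was 9 and 8, while that of all tested genes went from 3051 higher and 2121 lower to 2188 and 3473. Differences of at least 2-fold were called for 4 genes, against 5.71% of all tested genes, namely Sfrp5, Sfrp2, Sfrp1 and Notum. The median of the 39 was 0.17, beside 0.01 over all tested genes. The 3 Sfrp genes were on the side of the higher response in Stra8KO, and Tcf7, Lef1, Axin2 and Notum on the other. The 8 markers of undifferentiated spermatogonia were called on the higher side too, with a median of 2.68, and the part of that change in these results was not tested.

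A list of 60 further genes of the pathway, of which 58 were tested, was followed beside them. With NRRA, 19 of the 58 were called higher and 22 lower in each genotype, against 21.6% and 20.2% of all tested genes in Stra8KO and 24.5% and 25.5% in Spo11KO, with medians of -0.01 in Stra8KO and 0.01 in Spo11KO. Between genotypes, 26 were called higher in Stra8KO and 18 lower with Veh, against 31.6% and 30.7%, and 29 and 15 with NRRA, against 35.0% and 28.9%. The 2 genes of ligand secretion rose in both genotypes: Porcn, the enzyme that adds the lipid, by 0.83 ± 0.170 and 1.07 ± 0.165, and Wls, the carrier of ligands to the surface, by 0.20 ± 0.0438 and 0.28 ± 0.0476 on the log2 scale. Of the 11 genes of the cytoplasmic machinery, such as Ctnnb1, Apc and Gsk3b, and of the 10 nuclear partners, none passed 2-fold in any comparison. Of the 8 tested inhibitors on this list, 5 were called lower and none higher with NRRA in each genotype. Over all tested genes, 20.2% were called lower in Stra8KO and 25.5% in Spo11KO. These inhibitors include Frzb, of the Sfrp family, and the Dkk-like gene Dkkl1. Of the 6 tested further targets, 4 were called lower and 1 higher in each.

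Among genes of that list at a mean of at least 1 CPM, the 8 largest called NRRA changes fell into the R-spondins, which strengthen Wnt signals by way of Lgr receptors, the inhibitors and the targets. Rspo4 had 2083 and 1707 counts with Veh and 387 and 392 with NRRA in Stra8KO cultures, beside 861 and 903 with Veh and 710 and 793 with NRRA in Spo11KO cultures. Rspo2 had 446 and 386, then 351 and 371, in Stra8KO, and 1287 and 1264, then 262 and 293, in Spo11KO. The former fell more in Stra8KO (log2 -2.29 ± 0.0689, beside -0.47 in Spo11KO) and the latter more in Spo11KO (-2.44 ± 0.0783, beside -0.21 in Stra8KO), with interactions of -1.81 ± 0.0977 (adjusted p = 9.36e-21) and 2.23 ± 0.118 (adjusted p = 5.36e-21). Rspo1 rose in both, from 16 and 15 to 50 and 94 counts in Stra8KO and from 13 and 15 to 56 and 67 in Spo11KO.

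Among the inhibitors, Wif1, which binds Wnt ligands, had 70 and 73 counts with Veh and 78 and 80 with NRRA in Stra8KO cultures, beside 118 and 133 with Veh and 24 and 30 with NRRA in Spo11KO cultures (fell by 2.45 in Spo11KO, SE 0.223, adjusted p = 2.05e-13). Apcdd1, an inhibitor at the cell surface, fell in both genotypes, with log2 fold changes of -1.56 ± 0.0536 and -1.18 ± 0.0578. Nkd2 fell in Stra8KO from 498 and 431 to 182 and 177 counts (-1.38 ± 0.114, adjusted p = 1.21e-14) and was not called in Spo11KO (0.02, adjusted p = 0.888). The target Sp5, a transcription factor, fell in both, with log2 fold changes of -1.68 ± 0.113 and -1.52 ± 0.0952, opposite in sign to Axin2. T (brachyury), another target, had 43 and 37 counts with Veh and 27 and 21 with NRRA in Stra8KO cultures, beside 126 and 128 with Veh and 5 and 2 with NRRA in Spo11KO cultures (fell by 5.36 in Spo11KO, SE 0.352, adjusted p = 2.42e-18). T, Wif1 and Rspo2, like Sfrp5, were thus highest in Spo11KO Veh and lowest in Spo11KO NRRA, as was the summed level of the undifferentiated markers. Apcdd1 and Sp5 had other orders, with Apcdd1 highest in Stra8KO Veh and Sp5 lowest in Stra8KO NRRA. How many other genes share the order of T was not counted. The part of undifferentiated spermatogonia in these changes was not tested.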

How the data were processed

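The libraries were poly(A) RNA-seq libraries of 4 groups with 2 replicates each. The authors deposited raw counts per Ensembl gene, not normalized, 1 column per library. The submitters' processing notes name STAR 2.6.1c, featureCounts 1.6.4 and mm10. The annotation release, the strand setting and the treatment of reads with several matches are not given in the sources used here. The study describes the sequencing replicates as independent and biological.

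The test used edgeR 4.0.16 (R 4.3.3): filterByExpr (20588 genes kept, 99.88% of counts), TMM scaling, 1 group-means fit of 8 libraries, robust quasi-likelihood test (two-sided) and Benjamini-Hochberg adjustment over all tested genes. The study's methods name DESeq2, run here as an alternative (1.42.0). Intervals cover counting error only. Coordinates and exon lengths came from GENCODE M21 (GRCm38). Exon length is the union of a gene's exons.

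Members described library by library were tested genes of at least 1 CPM on average and called with at least 2-fold in 1 of the 5 contrasts, with every target and co-receptor. Fzd2, Fzd7, Fzd10, Dkk1, Wnt3 and the nuclear factor Lef1 fall outside this rule and were chosen after their values were seen. The members, the pathway list and the marker lists were chosen with earlier results of these data known.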

Additional observations from a re-analysis of the deposited data

Results flagged for a closer look

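The difference between the NRRA responses of the genotypes (log2 fold change in Stra8KO minus that in Spo11KO) was called by the edgeR interaction test for 14 of the 39 tested genes. On the side of a higher response in Stra8KO were Sfrp5 (4.03), Sfrp2 (1.46), Sfrp1 (1.16), Fzd2 (0.88), Wnt2b (0.79), Fzd7 (0.72), Wnt3 (0.70), Fzd3 (0.38), Dkk3 (0.34) and Lrp5 (0.20). On the other side were Tcf7 (-0.33), Lef1 (-0.87), Axin2 (-0.97) and Notum (-1.92). Sfrp2 and Fzd7 were called in opposite directions in the 2 genotypes. The Lrp5 value was not called with total counts (0.11, adjusted p = 0.167), without the filter (0.14), with the DESeq2 Wald test (0.17, adjusted p = 0.0744), without Stra8KO Veh replicate 2 (0.17, adjusted p = 0.0886) or without Stra8KO NRRA replicate 2 (0.15, adjusted p = 0.105). The Lef1 value was lost when any 1 of 4 libraries was left out, with a range of -0.82 to -0.64 over these. The Sfrp5 value was 5.02 without Stra8KO Veh replicate 1 and 5.05 without Spo11KO NRRA replicate 2. No group has enough libraries to test for a library that stands apart.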

How the results depend on the processing

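The replicate numbers did not pair the libraries (correlations of deviations between same-numbered libraries from -0.0271 to 0.0558), and a replicate block left the counts of called genes at 29 and 27 for NRRA in Stra8KO and Spo11KO, 20 and 29 for genotype with Veh and NRRA, and 14 for the interaction, and ended the call of Wnt9b by genotype with Veh (adjusted p = 0.0439 without and 0.0502 with the block). The number of genes called, in either direction together, moved by no more than 1.5 times under any alternative. Total counts took the lower calls of the interaction from 4 to 8, and those over all tested genes from 2121 to 3473. Leaving out 1 library gave 25 to 31 and 25 to 28 called genes for NRRA in Stra8KO and Spo11KO, 17 to 20 and 23 to 30 for genotype with Veh and NRRA, and 12 to 16 for the interaction. The DESeq2 Wald test gave 25, 26, 16, 23 and 12. Of 120 called values followed, 95 kept their direction and call under every alternative. With total counts the sign turned for Lrp5 by genotype with NRRA (-0.02), Lrp6 by genotype with Veh (-0.08), Wnt7b by genotype with NRRA (-0.14), the Wnt5a interaction (-0.05), and NRRA in Spo11KO for Tcf7 (0.06), Lef1 (0.02) and Fzd1 (0.03). Without a filter beyond 1 count it turned for Tcf7 (0.01) and the Wnt5a interaction (-0.02), and with the compared libraries alone for Wnt7b (-0.01). Apart from that of Lrp5 with NRRA, these values were not called. Leaving out 1 library spanned 0 for values that were not called: interactions of Wnt9a (-0.02 to 0.48), Sfrp4 (-0.03 to 1.21) and Nkd1 (-0.38 to 0.00), NRRA in Stra8KO for Sfrp5 (-0.92 to 0.61) and Nkd1 (-0.01 to 0.38), NRRA in Spo11KO for Lef1 (-0.17 to 0.03), and genotype for Wnt7b with NRRA (-0.09 to 0.20) and, with Veh, Lrp5 (-0.05 to 0.02) and Wnt2b (-0.03 to 0.31). The cause was not tested. The total-count setting moved the split of all tested genes from 7214 higher and 5956 lower to 5348 and 8183 for genotype with NRRA. Genes under 1 CPM on average, 8 of the 39, rest on few counts.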
